A study of Mus musculus with 8 samples.

Results

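The measurements concern 40 transcripts of other blood lineages in libraries made from sorted natural killer (NK) cells. They were taken from 48321 listed gene symbols by name, because each is known as a gene of a cell that the sort was meant to leave out. Of these, 11 belong to B cells, 4 to antigen presentation by MHC class II, 12 to myeloid cells, 8 to platelets and their precursors, and 5 to red blood cells. A read was counted for 36 of the 40 in at least 1 library, and 24 passed the filter on low counts and were tested. The other 16 are given as reads, and 12 of them had at least 1 read.

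RNA was sequenced from CD45+ TCRb- NK1.1+ cells of lung and spleen of C57/Bl6 mice. The genotypes were WT and KO, in which both copies of *Ccl5-PE*, the proximal enhancer of the chemokine gene *Ccl5* on chromosome 11, were deleted in the germline with CRISPR/Cas9. There were 8 libraries in 4 groups, WT lung, KO lung, WT spleen and KO spleen, with 2 in each. The mice of the study were of mixed sexes and at most 4 months old, without age or sex for each library, and the sources do not tell whether separate mice gave the 2 libraries of a group.

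Library totals lay between 3132963 and 26482366 reads on genes. Levels are in CPM, the usual scale of read counts relative to all reads on genes (with library sizes scaled by edgeR's TMM factors), and the value of library 1 of a group is given before that of library 2. A library with 0 reads of a gene was taken to allow up to 3 reads, a floor of 0.373 and 0.777 CPM in WT lung, 0.614 and 0.408 in KO lung, 0.749 and 0.351 in WT spleen, and 0.979 and 0.115 in KO spleen. Floors and intervals cover counting error only, and the floor of a group is 3 reads over both of its libraries. *Ccl5* itself was at 19482 and 18315 CPM in WT lung and 2986 and 3188 in KO lung, and at 16647 and 15634 CPM in WT spleen and 2671 and 2428 in KO spleen, lower in each library labelled KO. The NK cell and gate markers (13 genes, *Ncr1*, *Klrb1c* and *Ptprc* among them) lay between 147 and 25399 CPM in every library. Libraries of a group differed little. The variance between them was 1.19 to 1.45 times that of counting alone over all genes, 1.02 to 1.35 times over the transcripts described here, and edgeR put the common biological coefficient of variation at 2.50%. Since separate mice are not stated, the p-values measure only the spread between libraries, which may be technical, and an exact permutation test of 2 libraries against 2 can give no p below 0.333.

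B cells carry a receptor made of immunoglobulin heavy chains (*Ighm*, *Ighd*) and light chains (*Igkc*) with the signalling partners CD79A and CD79B, and they display peptides on MHC class II. In an MHC class II molecule, an alpha and a beta chain are assembled with the invariant chain encoded by *Cd74*, and B cells, dendritic cells and macrophages all use it. Platelets are cell fragments without a nucleus that carry RNA from megakaryocytes, which are found in mouse bone marrow, spleen and lung. Red cells and their precursors are filled with globin mRNA. RNA of such cells can be read in a sorted population when cells, fragments or free RNA come through the gate, and some of these genes are also transcribed in NK cells. In bulk libraries, fewer cells of a type and less RNA per cell cannot be told apart.

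The adult globin genes are shown first because their reads can be placed only in part. *Hba-a1* and *Hba-a2* have coding sequences of 426 bases that differ at 1 base (99.77% identity), and those of *Hbb-bs* and *Hbb-bt*, of 441 bases, also differ at 1. The 90-base windows of the GRCm38 coding sequence around these differences are given 5′ to 3′ on the strand of the gene, with the base that differs in capitals. They lie at chr11:32284263-32284352 and chr11:32297080-32297169 on the plus strand and at chr7:103826692-103826781 and chr7:103812683-103812772 on the minus strand.
Hba-a1: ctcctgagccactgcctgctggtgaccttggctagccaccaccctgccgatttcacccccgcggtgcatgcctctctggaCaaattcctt
Hba-a2: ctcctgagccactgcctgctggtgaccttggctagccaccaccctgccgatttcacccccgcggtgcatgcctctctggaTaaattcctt
Hbb-bs: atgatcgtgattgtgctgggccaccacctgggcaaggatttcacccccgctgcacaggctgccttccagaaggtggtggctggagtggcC
Hbb-bt: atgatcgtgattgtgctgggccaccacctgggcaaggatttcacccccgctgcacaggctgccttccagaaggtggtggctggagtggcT
Of all stretches of 50 bases (the read length) in the transcripts, 67.5% of those of *Hba-a1*, 86.9% of *Hba-a2*, 65.8% of *Hbb-bs* and 58.3% of *Hbb-bt* also occur in the other gene of the pair. Reads that align to several places were not counted, so the globin counts come from the remaining stretches, and how reads were divided within a pair is uncertain. Among the other transcripts, the shared part was 17.7% for *Csf1r*, 15.4% for *Lyz2* (shared with *Lyz1*), 13.8% for *Alas2*, 10.3% for *Cd22*, 8.3% for *Cd79a* and at most 1.8% for the rest.

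The summed level of each lineage ordered the groups differently. The 11 B cell transcripts summed to 308 ± 8.56 CPM in WT lung and 275 ± 2.70 in KO lung, and to 627 ± 6.22 in WT spleen and 753 ± 13.4 in KO spleen (SD, n = 2 libraries in each group, as for all sums). *Ighm* made up most of these sums. Without it they were 11.9 ± 0.731, 32.6 ± 0.413, 145 ± 0.184 and 168 ± 1.5 CPM, so the order of the lung groups turned round. The MHC class II transcripts summed to 48.7 ± 3.34 CPM in WT lung and 141 ± 12.7 in KO lung, with 410 ± 2.35 in WT spleen and 545 ± 11.6 in KO spleen. Platelet transcripts had the opposite order between organs, with 35.8 ± 3.72 CPM in WT lung, 6.95 ± 0.0146 in KO lung, 1.94 ± 0.433 in WT spleen and 2.84 ± 0.320 in KO spleen. Erythroid transcripts summed to 26.2 ± 2.11 CPM in WT lung, 51.4 ± 2.69 in KO lung and under 1 CPM in both spleen groups (0.900 ± 0.214 in WT and 0.834 ± 0.205 in KO). The myeloid sums lay closer together, at 34.9 ± 2.63, 40.2 ± 2.76, 20.8 ± 0.0462 and 27.4 ± 0.473 CPM. These sums are descriptions, without a test.

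**Figure D1:**
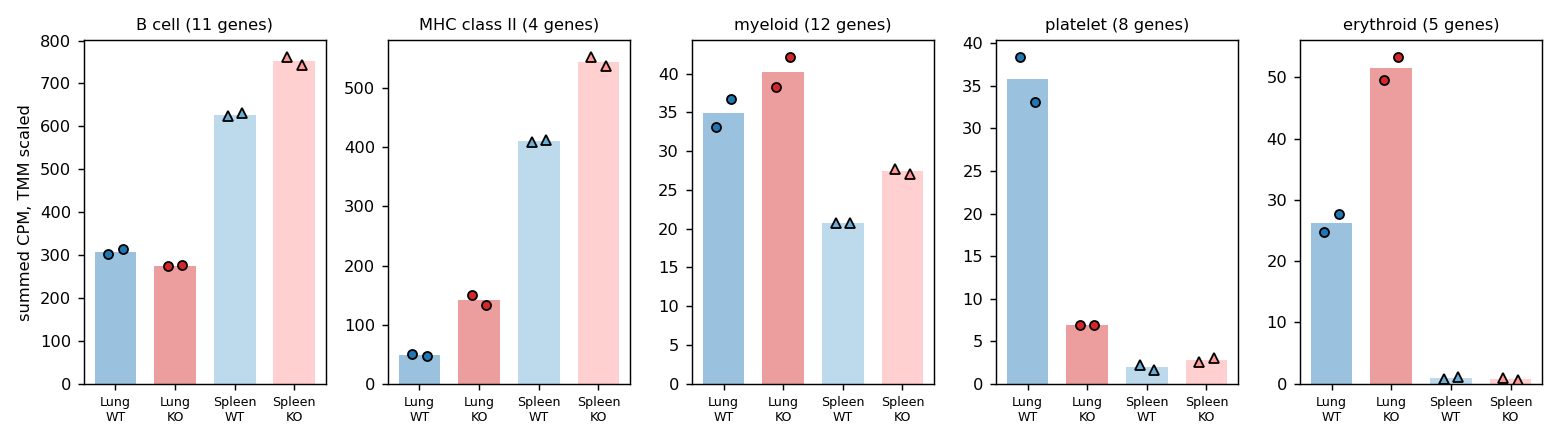
Summed level of the transcripts of each lineage in the 4 groups, in CPM scaled by TMM. Bars are means and points the 2 libraries of each group (circles lung, triangles spleen); the axes start at 0 and differ between panels. B cell and MHC class II sums are higher in spleen, platelet and erythroid sums in lung, and KO lung lies below WT lung for platelets (6.95 against 35.8 CPM) and above it for MHC class II and red cells.

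In lung, 14 of the 24 tested transcripts were higher and 5 lower in KO than in WT, beside 29.2% higher and 26.4% lower of all 12595 genes tested. Their median log2 fold change was 0.93, or 0.81 with the 4 transcripts without a read in WT lung set to their lower bound, against 0.02 for all genes tested. Of the 5 that were lower, 2 (*Pf4* and *Treml1*) reached the level of the filter, 1.67 CPM, in WT lung alone, so that they were tested only because of the group where they were high. In spleen, 9 were higher and 2 lower, beside 28.2% and 28.9% of all genes tested, and the median was 0.11 against 0.00. Since so many of all genes passed in each direction, the lineages are described by the size of the differences. Counts of calls in single lineages and in further gene lists, given below, stand beside the same shares of all genes tested. The 2 comparisons share no library, and the difference between the organs was tested as a term of its own in the model. It passed for 12 of the 24, beside 61.6% of all genes tested.

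**Figure D2:**
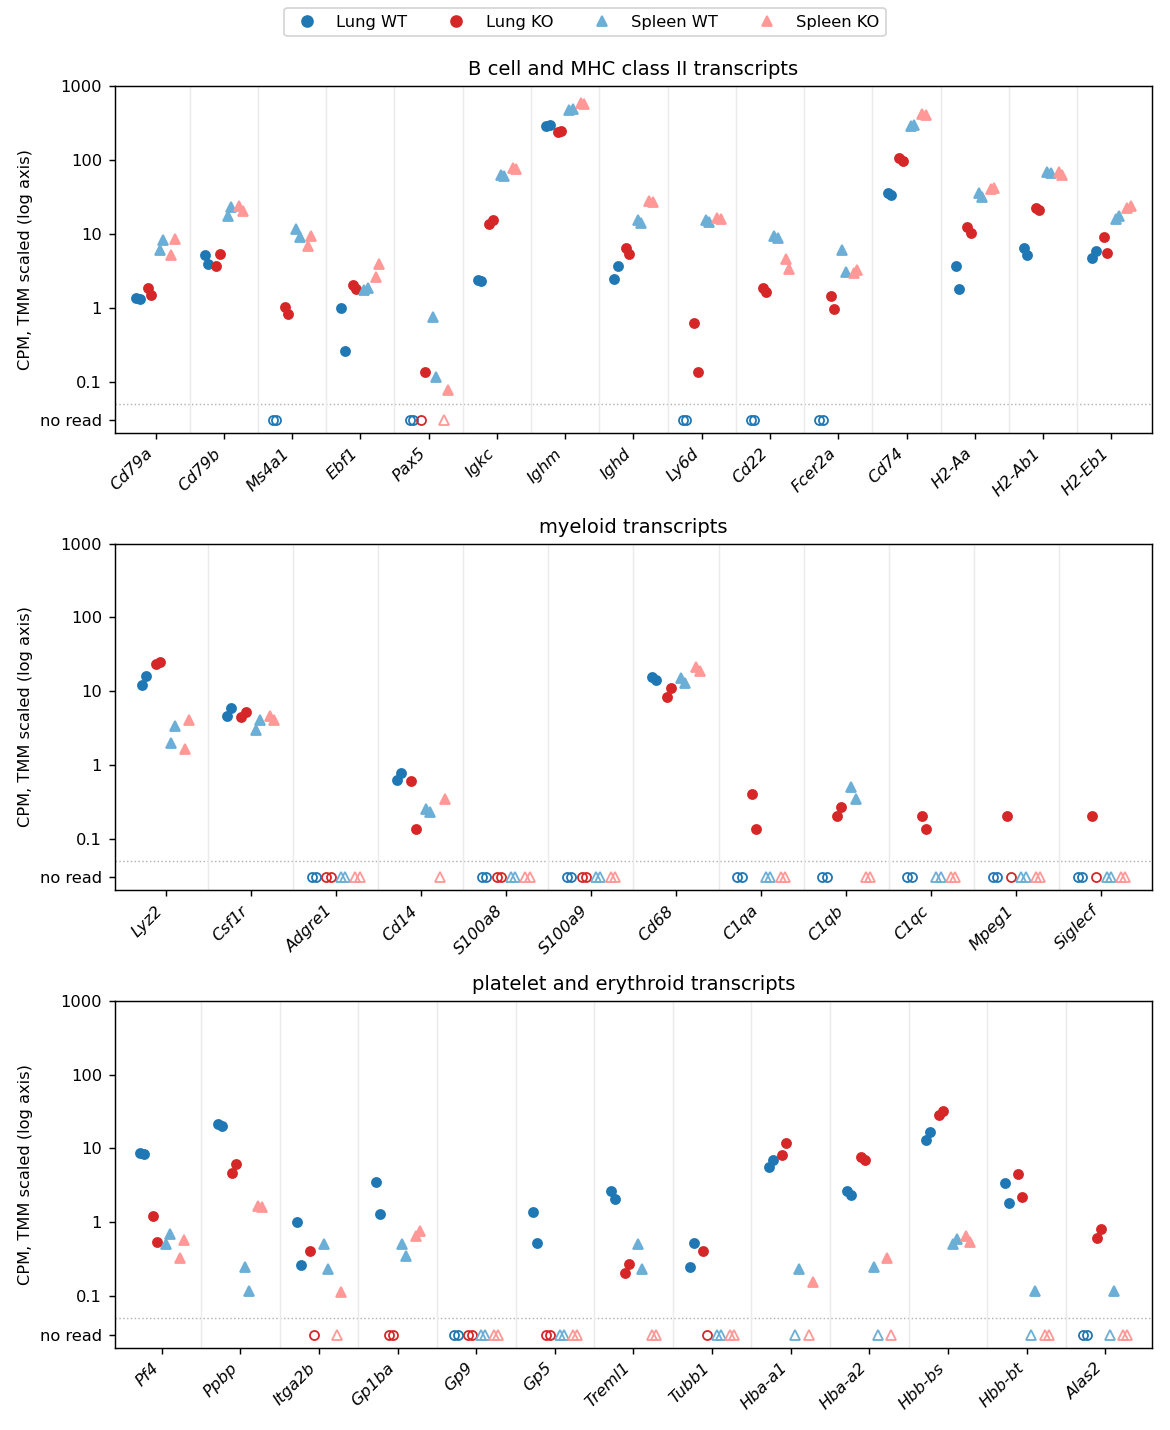
Level of each of the 40 transcripts in each of the 8 libraries, in CPM on a log axis (blue WT, red KO, circles lung, triangles spleen). Open symbols on the lowest line are libraries with 0 reads. *Ms4a1*, *Ly6d*, *Cd22* and *Fcer2a* have no read in either WT lung library and reads in all others, and *Gp1ba* and *Gp5* have none in KO lung.

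Of the 10 B cell transcripts tested, 7 were higher and 1 was lower in KO lung, and the median log2 fold change was 1.96 (1.15 with the transcripts at 0 set to their bounds). *Igkc*, the constant region of the kappa light chain (chromosome 6, 70726435 to 70726966, plus strand, GRCm38), was at 2.36 and 2.33 CPM in WT lung and at 13.5 and 15.4 in KO lung. In spleen it was at 62.2 and 61.7 CPM in WT and at 78.3 and 74.9 in KO. The 4 groups did not overlap. The log2 fold change of *Igkc* was 2.63 in lung (standard error 0.23, edgeR adjusted p = 2.96e-12) and 0.29 in spleen (standard error 0.069, edgeR adjusted p = 0.000538). The difference between these effects was 2.34 (edgeR adjusted p = 1.57e-10). The spleen call did not hold with DESeq2 (adjusted p = 0.0746).

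*Ms4a1* (CD20, a B cell surface protein) had 0 reads in both WT lung libraries, 5 and 6 reads in KO lung, 47 and 78 in WT spleen and 21 and 247 in KO spleen. *Cd22*, an inhibitory co-receptor of B cells, had 0 reads in WT lung, 9 and 12 in KO lung, 37 and 75 in WT spleen and 14 and 87 in KO spleen. *Fcer2a* (CD23, the low-affinity IgE receptor of mature B cells) had 0 reads in WT lung, 7 and 7 in KO lung, 24 and 26 in WT spleen and 9 and 84 in KO spleen. All 3 thus had reads in each library outside WT lung. *Ly6d*, a surface marker of early and mature B cells, followed with 0 reads in WT lung, 3 and 1 in KO lung, 61 and 124 in WT spleen and 50 and 414 in KO spleen. Against the floor of WT lung, KO lung was at least 3.57-fold higher for *Ms4a1*, 6.81-fold for *Cd22*, 4.54-fold for *Fcer2a* and 1.30-fold for *Ly6d*. The quasi-likelihood test passed for each (edgeR adjusted p = 0.00118, 1.46e-05, 0.000516 and 0.0383), while that of *Ly6d*, which rests on 4 reads, was lost with DESeq2 (adjusted p = 0.101) and without library 1 of WT lung, library 2 of WT lung or library 1 of KO lung (edgeR adjusted p = 0.235, 0.0797 and 0.249).

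In spleen, 1 of these 4 transcripts passed the test. *Cd22* fell from 9.24 and 8.76 CPM in WT to 4.57 and 3.33 in KO (log2 fold change -1.35, standard error 0.21, edgeR adjusted p = 1.49e-06). *Ms4a1* was at 11.7 and 9.11 CPM in WT and at 6.86 and 9.46 in KO, and *Fcer2a* at 6.0 and 3.04 and at 2.94 and 3.22, with overlapping groups for both. *Ly6d* was at 15.2 and 14.5 CPM in WT and at 16.3 and 15.9 in KO. None of these 3 passed (edgeR adjusted p = 0.547, 0.317 and 0.508). The ratio of KO to WT reads in spleen was 0.923 for *Ms4a1* (exact 95% interval 0.744 to 1.15) and 1.08 for *Ly6d* (0.909 to 1.29).

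*Ighm*, the constant region of the mu heavy chain (chromosome 12, 113418558 to 113422730, minus strand), had the highest level per kb of exon of the 40 in every group, from 129 CPM per kb in KO lung to 310 in KO spleen, where *Cd74* was at 247. It was at 289 and 303 CPM in WT lung, 241 and 244 in KO lung, 478 and 487 in WT spleen and 593 and 577 in KO spleen. In lung it was 1.21-fold lower in KO (log2 fold change -0.28, standard error 0.046, edgeR adjusted p = 3.30e-06) and in spleen 1.21-fold higher (0.27, standard error 0.039, edgeR adjusted p = 2.44e-07). The difference between the organs was -0.55 (edgeR adjusted p = 5.14e-10). Neither difference from WT passed with an assumed coefficient of variation of 0.2 (edgeR likelihood ratio test, adjusted p = 0.611 in lung and 0.645 in spleen).

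The heavy chain was not read in a fixed proportion to the light chain. For each read of *Igkc* there were 125 reads of *Ighm* in WT lung, 16.6 in KO lung, 7.82 in WT spleen and 7.69 in KO spleen. These ratios compare reads and not levels, since the 2 regions differ in length, but the lengths are the same in all groups. *Ighd*, the constant region of the delta heavy chain of mature B cells, was at 2.49 and 3.63 CPM in WT lung, 6.35 and 5.31 in KO lung, 15.2 and 14.3 in WT spleen and 27.7 and 26.8 in KO spleen. It rose in both organs, with log2 fold changes of 1.0 in lung (edgeR adjusted p = 0.00264) and 0.89 in spleen (edgeR adjusted p = 6.30e-08), and the difference between the organs, 0.11, did not pass (edgeR adjusted p = 0.779). In lung the call was lost without library 1 of WT lung (log2 fold change 0.65, edgeR adjusted p = 0.186).

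The receptor's signalling partners behaved in another way. *Cd79b* was at 5.22 and 3.89 CPM in WT lung and at 3.68 and 5.31 in KO lung, and at 17.2 and 23.5 in WT spleen and 24.2 and 20.5 in KO spleen. *Cd79a* lay between 1.30 and 1.84 CPM in the lung libraries and between 5.22 and 8.58 in the spleen libraries. Neither passed in either organ (edgeR adjusted p between 0.650 and 0.921), and the read ratio of KO to WT in lung was 0.973 for *Cd79b* (exact 95% interval 0.662 to 1.43) and 1.22 for *Cd79a* (0.599 to 2.51). Both intervals end below that of *Igkc*, whose ratio was 6.22 (4.16 to 9.62). *Ebf1*, a transcription factor of early B cells, was at 0.995 and 0.259 CPM in WT lung, 2.05 and 1.77 in KO lung, 1.75 and 1.87 in WT spleen and 2.61 and 3.95 in KO spleen. It was higher in KO in lung (log2 fold change 1.30, edgeR adjusted p = 0.0363) and in spleen (1.04, edgeR adjusted p = 0.00539), but with DESeq2 in neither (adjusted p = 0.163 and 0.294). The lung call was lost without library 2 of WT lung (log2 fold change 0.91), library 1 of KO lung (1.21) or library 2 of KO lung (1.42), with edgeR adjusted p of 0.171, 0.105 and 0.0832, and the value was 2.79 without library 1 of WT lung. The spleen call was lost without library 2 of WT spleen (1.10, edgeR adjusted p = 0.0844) or library 2 of KO spleen (0.50, edgeR adjusted p = 0.560). *Pax5*, which keeps B cells committed to their lineage, had 0 reads in WT lung, 0 and 1 in KO lung, 3 and 1 in WT spleen and 0 and 2 in KO spleen, too few to test.

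Of 13 further B cell genes, 10 were tested, of which 3 were higher and 1 lower in KO lung and 1 higher and 3 lower in KO spleen. *Fcrla*, an Fc receptor-like protein of B cells, was the 1 that was lower in lung, with 17 and 4 reads in WT and 0 in both KO libraries (at least 7.20-fold lower, edgeR adjusted p = 1.50e-05). The lambda light chain regions *Iglc2* and *Iglc3* had 2 to 6 reads in each lung library. In spleen, *Iglc2* fell from 9.24 and 9.81 CPM to 4.90 and 5.36 (edgeR adjusted p = 0.000233) while *Iglc3* rose from 2.0 and 2.22 to 6.86 and 4.90 (edgeR adjusted p = 0.000284). Of 6 plasma cell genes, 3 were tested. *Igha*, the heavy chain of IgA, had 0 reads in WT lung, 5 and 9 in KO lung, 56 and 90 in WT spleen and 0 in both KO spleen libraries. It was at least 4.54-fold higher in KO in lung (edgeR adjusted p = 0.000366) and at least 113-fold lower in KO in spleen (edgeR adjusted p = 1.13e-16), and it passed the filter only through WT spleen. *Jchain*, which joins IgA and IgM into polymers, had 3 and 0 reads in WT lung, 24 and 24 in KO lung, 85 and 182 in WT spleen and 31 and 215 in KO spleen, higher in KO lung (log2 fold change 3.89, edgeR adjusted p = 3.94e-07) and lower in KO spleen (-1.32, edgeR adjusted p = 1.40e-09). *Xbp1*, a transcription factor that many cell types use in secretion, was at 253 and 262 CPM in WT lung and at 313 and 302 in KO lung (log2 fold change 0.26, edgeR adjusted p = 1.13e-05).

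The promoters of the MHC class II genes share a Y box, the binding sequence of the factor NF-Y, with the letters CTGATTGG. It was searched on both strands over the 250 bases before each start in RefSeq's table for GRCm38.p6, which held the promoters of *H2-Aa* and *H2-Eb1* and gave no entry for *H2-Ab1* and *Cd74*. The Y box was found in both, and in at least 1 promoter of 4.43% of 27025 genes. Outside MHC class II, *Fcer2a* also had 1 match. The 150 bases before the start are shown because these genes differ in the lung comparison although both carry the box (in capitals). They lie at chr17:34287824-34287973 on the minus strand for *H2-Aa* and at chr17:34305717-34305866 on the plus strand for *H2-Eb1*.
H2-Aa: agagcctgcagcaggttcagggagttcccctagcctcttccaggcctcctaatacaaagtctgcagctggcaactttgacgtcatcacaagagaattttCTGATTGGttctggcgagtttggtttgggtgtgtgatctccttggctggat
H2-Eb1: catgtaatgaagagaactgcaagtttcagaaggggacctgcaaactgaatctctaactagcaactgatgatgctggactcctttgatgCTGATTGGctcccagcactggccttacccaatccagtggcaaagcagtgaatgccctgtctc

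All 4 MHC class II transcripts were tested, and 3 were higher in KO lung, with a median log2 fold change of 1.67. *Cd74*, the invariant chain, was at 36.2 and 33.4 CPM in WT lung and at 106 and 96.1 in KO lung, and at 289 and 297 in WT spleen and 421 and 408 in KO spleen. The groups were apart in both organs. Its log2 fold change was 1.51 in lung (standard error 0.081, edgeR adjusted p = 6.68e-18) and 0.49 in spleen (standard error 0.044, edgeR adjusted p = 8.62e-12), and the difference of 1.02 passed (edgeR adjusted p = 7.03e-12). With an assumed coefficient of variation of 0.2, neither the spleen effect (adjusted p = 0.325) nor the difference (adjusted p = 0.0722) passed in edgeR's likelihood ratio test, while the lung effect did.

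*H2-Aa*, the alpha chain of I-A, was at 3.73 and 1.81 CPM in WT lung, 12.3 and 10.2 in KO lung, 36.2 and 32.0 in WT spleen and 40.2 and 41.3 in KO spleen. *H2-Ab1*, its beta chain, was at 6.46 and 5.18 CPM in WT lung, 22.7 and 20.8 in KO lung, 68.2 and 65.9 in WT spleen and 69.2 and 63.6 in KO spleen. Both chains of I-A were therefore higher in each KO lung library than in each WT lung library. The log2 fold change in lung was 1.83 for each (standard error 0.25 and 0.17, edgeR adjusted p = 7.21e-08 and 1.53e-11), while without library 1 of WT lung that of *H2-Aa* was 2.59 (edgeR adjusted p = 8.49e-07). In spleen, that of *H2-Aa* was 0.30 (edgeR adjusted p = 0.00716, lost with DESeq2 at adjusted p = 0.272 and without library 2 of WT spleen or of KO spleen at 0.297 and 0.217) and that of *H2-Ab1* was -0.04 (standard error 0.071, edgeR adjusted p = 0.613). The spleen value of *H2-Ab1* turned to 0.24 with the trend of each library with GC content removed (edgeR adjusted p = 0.00442). The lung and spleen effects differed by 1.53 for *H2-Aa* (edgeR adjusted p = 6.04e-06) and by 1.88 for *H2-Ab1* (edgeR adjusted p = 3.88e-11).

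*H2-Eb1*, the beta chain of I-E, was at 4.72 and 5.96 CPM in WT lung and at 9.01 and 5.44 in KO lung, and these groups overlapped. C57/Bl6 mice lack a working I-E alpha chain, so this chain does not reach the surface as I-E. The log2 value in lung was 0.42 (standard error 0.25, edgeR adjusted p = 0.148), and the read ratio of KO to WT was 1.34 with an exact 95% interval of 0.952 to 1.89, below that of *H2-Aa* (2.45 to 5.26). In spleen it was at 15.7 and 17.4 CPM in WT and at 22.2 and 24.1 in KO (log2 fold change 0.50, edgeR adjusted p = 0.000868, DESeq2 adjusted p = 0.127), and the call was lost without library 2 of KO spleen (0.39, edgeR adjusted p = 0.166).

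Of 14 genes that regulate or assist MHC class II, 13 were tested, with 6 higher and 1 lower in KO lung and 4 higher and 3 lower in KO spleen. *H2-DMb1*, a chain of the peptide editor H2-M, rose in lung from 4.97 and 6.22 CPM to 13.5 and 12.7 (log2 fold change 1.27, edgeR adjusted p = 1.13e-06), and its partner *H2-DMa* from 31.0 and 23.8 to 42.6 and 40.7 (0.54, edgeR adjusted p = 4.96e-05). The co-stimulator *Cd86* went the other way, from 16.8 and 17.9 CPM in WT lung to 3.68 and 4.08 in KO lung (-2.13, edgeR adjusted p = 3.91e-11), and it also fell in spleen (-0.65, edgeR adjusted p = 0.000375). *Ciita*, the master regulator of MHC class II, which is named outside the rule for named genes, had 0 reads in WT lung, 2 and 5 in KO lung, 3 and 9 in WT spleen and 2 and 41 in KO spleen.

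**Figure D3:**
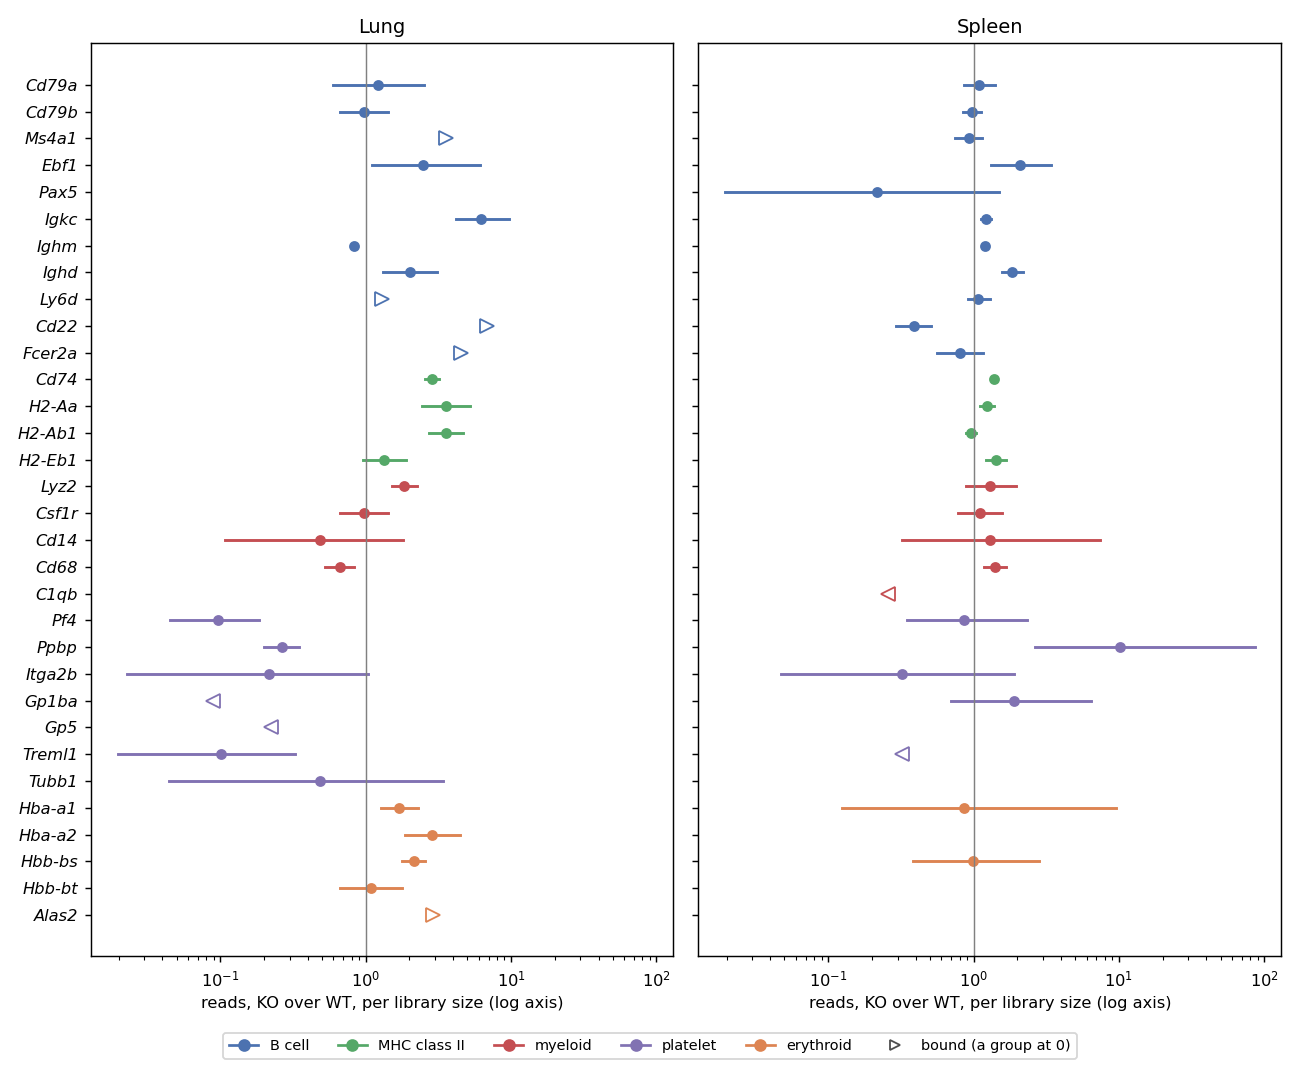
Ratio of reads in KO to reads in WT, each per scaled library size and summed over the 2 libraries of a group, in lung and in spleen (log axis, same scale in both panels). Points have exact 95% intervals for counting error, open triangles are bounds against the floor of 3 reads where a group has none, and transcripts with at most 3 reads in both groups are left out. In lung, MHC class II transcripts lie to the right of 1 and platelet transcripts to the left, and in spleen most transcripts lie near 1.

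The myeloid list held few reads. *Adgre1* (F4/80 of macrophages), *S100a8* and *S100a9* (abundant in neutrophils and monocytes) had 0 reads in all 8 libraries, which allows at most 0.103 to 0.252 CPM in a group. The complement genes *C1qa*, *C1qb* and *C1qc* of tissue macrophages had 0 reads in WT lung and KO spleen. In KO lung they had 2 and 1, 1 and 2, and 1 and 1 reads, and in WT spleen 0, 2 and 3 (for *C1qb*), and 0. *Mpeg1* of macrophages and *Siglecf* of alveolar macrophages and eosinophils had 1 read each, in library 1 of KO lung. *Cd14*, a co-receptor for lipopolysaccharide, had 5 and 3 reads in WT lung, 3 and 1 in KO lung, 1 and 2 in WT spleen and 0 and 9 in KO spleen.

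The 3 myeloid transcripts that were tested moved apart from each other. *Lyz2*, lysozyme of macrophages and neutrophils, was at 12.2 and 15.8 CPM in WT lung, 23.5 and 25.2 in KO lung, 2.0 and 3.39 in WT spleen and 1.63 and 4.10 in KO spleen. It was higher in KO lung (log2 fold change 0.87, standard error 0.16, edgeR adjusted p = 1.84e-05), which DESeq2 did not call (adjusted p = 0.118), and the spleen groups overlapped (edgeR adjusted p = 0.281). *Cd68*, a lysosomal protein of macrophages that other leukocytes also express, was at 15.7 and 14.2 CPM in WT lung and 8.39 and 11.2 in KO lung, and at 15.0 and 12.7 in WT spleen and 21.5 and 18.6 in KO spleen. It fell in lung (log2 fold change -0.60, edgeR adjusted p = 0.00324) and rose in spleen (0.50, edgeR adjusted p = 0.00176), and the difference of -1.09 passed (edgeR adjusted p = 4.09e-05). DESeq2 called neither single effect (adjusted p = 0.0547 in lung and 0.0811 in spleen). The lung call was also lost without library 1 of WT lung or of KO lung (edgeR adjusted p = 0.0876 and 0.0541), and the spleen call without library 2 of WT spleen (edgeR adjusted p = 0.17). *Csf1r*, the receptor for M-CSF, lay between 3.00 and 5.96 CPM in all libraries and passed in neither organ (edgeR adjusted p = 0.913 and 0.658).

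Among 19 further macrophage and monocyte genes, 10 were tested, with 3 higher and 4 lower in KO lung and 3 higher and 2 lower in KO spleen. *Cebpb*, a transcription factor of myeloid and activated cells, was at 6.46 and 5.44 CPM in WT lung, 26.6 and 21.5 in KO lung, 5.50 and 4.56 in WT spleen and 0.653 and 0.766 in KO spleen. Its log2 fold change was 1.95 in lung (edgeR adjusted p = 1.60e-11) and -2.67 in spleen (edgeR adjusted p = 1.04e-08). *Fcer1g*, a signalling adaptor that NK cells use, was at 2137 to 3238 CPM in all libraries, and *Ctsd*, a lysosomal protease, at 518 to 725. Of 12 neutrophil genes, 7 had 0 reads in all libraries (*Retnlg*, *Camp*, *Ngp*, *Mpo*, *Elane*, *Csf3r* and *Cxcr2*), and 2 were tested. *Mmp9*, a secreted protease, had 19 and 7 reads in WT lung, 0 in KO lung and WT spleen, and 0 and 6 in KO spleen (at least 8.91-fold lower in KO lung, edgeR adjusted p = 5.71e-06), and it was tested only because it passed the filter in WT lung. Of 9 dendritic cell genes, *Flt3* had 0 reads in all libraries, and of the 4 tested, 1 was higher and 2 were lower in KO lung. *Cst3* was at 202 and 201 CPM in WT lung and 145 and 149 in KO lung, *Cd209a* (tested only through its level in WT lung) at 2.49 and 2.33 and at 0.614 and 0.408, and *Zbtb46* at 4.85 and 3.37 and at 8.60 and 8.57. The mast cell genes *Fcer1a*, *Ms4a2* and *Tpsb2* had 0 reads in all libraries, while *Cma1* was at 869 to 1786 CPM in every library and *Cpa3* at 1.04 to 4.71.

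Among the 40, platelet transcripts gave the largest falls in KO lung. *Ppbp* and *Pf4*, chemokines of platelet granules, are neighbours on the plus strand of chromosome 5 (90768518 to 90770063 and 90772435 to 90773383). *Ppbp* was at 21.1 and 20.2 CPM in WT lung, 4.71 and 6.12 in KO lung, 0.250 and 0.117 in WT spleen and 1.63 and 1.61 in KO spleen. *Pf4* was at 8.58 and 8.29 CPM in WT lung, 1.23 and 0.544 in KO lung, 0.50 and 0.701 in WT spleen and 0.326 and 0.575 in KO spleen. Both were thus lower in each KO lung library than in each WT lung library. In lung, the log2 fold change was -1.90 for *Ppbp* (standard error 0.18, edgeR adjusted p = 4.89e-11) and -3.35 for *Pf4* (standard error 0.36, edgeR adjusted p = 4.85e-10). The test of *Pf4* was made only because of its level in WT lung, as given above.

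In spleen, *Ppbp* went the other way, with 1 and 1 reads in WT and 5 and 42 in KO. The read ratio of KO to WT was 10.1 with an exact 95% interval of 2.65 to 86.0 (log2 fold change 3.22, standard error 0.66, edgeR adjusted p = 7.87e-05). *Pf4* had 2 and 6 reads in WT spleen and 1 and 15 in KO spleen and did not pass (edgeR adjusted p = 0.796). The difference between lung and spleen effects was -5.12 for *Ppbp* (edgeR adjusted p = 4.73e-09) and -3.14 for *Pf4* (edgeR adjusted p = 0.000297), and that of *Pf4* was lost without library 2 of KO spleen (-2.42, edgeR adjusted p = 0.298). For each read of *Pf4* there were 2.46 reads of *Ppbp* in WT lung, 6.80 in KO lung, 0.250 in WT spleen and 2.94 in KO spleen.

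*Treml1*, a receptor of platelet granules, had 21 and 8 reads in WT lung, 1 and 2 in KO lung, 2 and 2 in WT spleen and 0 in both KO spleen libraries. It was lower in KO lung (log2 fold change -3.23, standard error 0.65, edgeR adjusted p = 6.25e-05), and in KO spleen it was at least 3.10-fold lower (edgeR adjusted p = 0.00789), where DESeq2 did not call it (adjusted p = 0.0722) and where the call was lost without library 2 of KO spleen (edgeR adjusted p = 0.318). Like *Pf4*, it entered these tests only through WT lung. The other 5 platelet transcripts did not pass the filter. *Gp1ba*, the chain of the von Willebrand factor receptor that binds its ligand, had 28 and 5 reads in WT lung, 0 in both KO lung libraries, 2 and 3 in WT spleen and 2 and 20 in KO spleen. *Gp5*, another chain of this receptor, had 11 and 2 reads in WT lung and 0 in all 6 other libraries. KO lung was at least 11.3-fold lower than WT lung for *Gp1ba* and at least 4.45-fold lower for *Gp5*, by the floor of 3 reads and without a test. *Gp9*, a further chain of the receptor, had 0 reads in all libraries.

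*Itga2b* (integrin alpha IIb, the fibrinogen receptor) had 8 and 1 reads in WT lung, 2 and 0 in KO lung, 2 and 2 in WT spleen and 0 and 3 in KO spleen. *Tubb1*, the tubulin of the platelet's marginal band, had 2 and 2 reads in WT lung, 2 and 0 in KO lung and none in spleen. The read ratio of KO lung to WT lung was 0.216 for *Itga2b* (exact 95% interval 0.0227 to 1.04) and 0.486 for *Tubb1* (0.0440 to 3.39), so that no difference was detectable at this depth. Of 10 further genes of megakaryocytes and platelets, 7 were tested, with 2 higher and 0 lower in KO lung and 2 higher and 4 lower in KO spleen. *Gp1bb* was at 36.1 and 37.6 CPM in WT lung and at 28.9 and 38.2 in KO lung (edgeR adjusted p = 0.509), *Itgb3* at 5.10 and 4.92 and at 6.35 and 6.39 (edgeR adjusted p = 0.283), and *F2rl2*, a thrombin receptor, at 139 and 139 and at 185 and 185 (log2 fold change 0.42, edgeR adjusted p = 4.55e-08). *Clec1b*, a receptor of platelets that was not tested and is named after its values were seen, had 14 and 8 reads in WT lung, 3 and 2 in KO lung, 1 and 4 in WT spleen and 4 and 23 in KO spleen. Its read ratio of KO to WT in lung was 0.221 (exact 95% interval 0.0654 to 0.598). The 7 tested genes of its list, by contrast, had fitted log2 fold changes from -0.25 to 4.93 in lung, with 0 called lower. Among them, *Vwf* reached the level of the filter in KO lung alone.

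Megakaryocyte and red cell genes are known targets of the factor GATA1. Its core motif was searched as AGATAA or AGATAG, and further as TGATAA or TGATAG, on both strands over the same 250 bases before the start in RefSeq's GRCm38.p6 table. There, 29.7% of 27025 genes had at least 1 match in at least 1 promoter, and bases after the start were not searched. There were 3 matches each for *Gp1ba* and *Gp5*, 1 each for *Hba-a1*, *Hba-a2*, *Hbb-bs* and *Alas2*, and 0 for *Pf4*, *Ppbp*, *Treml1*, *Itga2b*, *Tubb1*, *Gp9* and *Hbb-bt*. Matches were not confined to these lineages, with 3 for *Mpeg1* and 1 each for *Fcer2a*, *H2-Eb1*, *S100a9* and *C1qb*. The 150 bases before the start are shown for *Gp1ba* and *Gp5*, which had reads in WT lung and none in KO lung and hold the most matches among the platelet promoters. With the matches in capitals (also as the reverse complement), they lie at chr11:70638972-70639121 on the plus strand for *Gp1ba* and at chr16:30310782-30310931 on the minus strand for *Gp5*.
Gp1ba: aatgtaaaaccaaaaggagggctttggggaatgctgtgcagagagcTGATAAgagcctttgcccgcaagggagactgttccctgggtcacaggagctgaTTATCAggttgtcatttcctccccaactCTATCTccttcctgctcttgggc
Gp5: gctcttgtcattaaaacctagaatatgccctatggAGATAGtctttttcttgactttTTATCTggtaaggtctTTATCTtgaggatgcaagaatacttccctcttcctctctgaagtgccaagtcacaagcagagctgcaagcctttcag

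Of the 4 globin genes tested, 3 were higher in KO lung, with a median log2 fold change of 0.92. *Hbb-bs*, an adult beta globin, was at 13.2 and 16.6 CPM in WT lung and at 28.7 and 31.7 in KO lung (log2 fold change 1.08, standard error 0.14, edgeR adjusted p = 2.79e-08). *Hba-a2* was at 2.61 and 2.33 CPM in WT lung and at 7.57 and 6.94 in KO lung (1.51, standard error 0.31, edgeR adjusted p = 7.04e-05), and *Hba-a1* at 5.59 and 6.99 and at 8.19 and 11.7 (0.75, standard error 0.23, edgeR adjusted p = 0.00571). In these 3, both KO lung libraries lay above both WT lung libraries. The call of *Hba-a1* was lost with the GC trend removed (0.40, edgeR adjusted p = 0.138), with DESeq2 (adjusted p = 0.232), and without library 1 of WT lung (0.55, edgeR adjusted p = 0.164) or library 2 of KO lung (0.43, edgeR adjusted p = 0.256). *Hbb-bt*, at 3.36 and 1.81 CPM in WT lung and 4.50 and 2.18 in KO lung, overlapped between the groups (edgeR adjusted p = 0.788). The alpha and beta globins kept a similar proportion, with 2.36 reads of *Hbb-bs* for each read of *Hba-a1* in WT lung and 2.96 in KO lung, whereas the reads of *Hbb-bs* for each read of *Hbb-bt* were 5.0 and 9.82.

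In the spleen libraries, *Hbb-bs* had 2, 5, 2 and 14 reads (WT before KO), and the other globins had at most 4. No difference between KO and WT was detectable there at this depth. The read ratio of *Hbb-bs* was 0.984 with an exact 95% interval of 0.383 to 2.83. *Alas2*, the enzyme that starts haem synthesis in red cell precursors, had 0 reads in WT lung, 3 and 6 in KO lung, 0 and 1 in WT spleen and 0 in KO spleen. It was at least 2.92-fold higher in KO lung, by the floor of 3 reads and without a test. Of 14 further erythroid genes, 5 had 0 reads in all libraries (*Klf1*, *Car1*, *Slc4a1*, *Gata1* and *Ermap*), and 5 were tested, with 1 higher and 1 lower in KO lung. *Hemgn*, a nuclear protein of blood precursors, was at 0.995 and 1.04 CPM in WT lung, 4.09 and 3.13 in KO lung, 1.75 and 2.57 in WT spleen and 5.88 and 7.81 in KO spleen. It was higher in KO in both organs, with log2 fold changes of 1.79 in lung (edgeR adjusted p = 0.000428) and 1.70 in spleen (edgeR adjusted p = 5.99e-07). *Car2*, a carbonic anhydrase of many cell types, was at 307 to 631 CPM and *Bpgm*, an enzyme of red cell glycolysis, at 49.3 to 69.9 in all libraries.

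Lung and spleen were compared within each genotype. In WT, 8 of the 24 tested transcripts were higher and 14 lower in lung, beside 27.7% and 29.3% of all genes tested. In KO, 7 were higher and 15 lower, beside 33.9% and 31.7%. All 10 B cell and all 4 MHC class II transcripts tested were lower in lung in both genotypes. Of these, *Ms4a1*, *Ly6d* and *Fcer2a* reached the level of the filter, 1.67 CPM, in spleen libraries alone. *Cd79a* and *Cd22* reached it in spleen and in only 1 lung library. These transcripts were thus tested only because of the organ where they were high. In WT, *Igkc* was 26.1-fold lower in lung (edgeR adjusted p = 1.27e-24), *Cd74* 8.32-fold (edgeR adjusted p = 8.67e-31) and *Ighm* 1.64-fold (edgeR adjusted p = 7.54e-17). *Ly6d* was at least 58.4-fold lower in lung in WT and *Ms4a1* at least 39.5-fold. In KO, *Igkc* was 5.17-fold lower in lung (edgeR adjusted p = 1.37e-22), *Cd74* 4.10-fold (edgeR adjusted p = 3.78e-29) and *Ighm* 2.40-fold (edgeR adjusted p = 2.62e-25). *Ly6d* was 46.6-fold lower in lung in KO (edgeR adjusted p = 7.49e-17), or 106-fold and 25.4-fold without library 1 or 2 of KO lung. *Cd22* was 2.03-fold lower (edgeR adjusted p = 0.00599), and its call was lost without library 2 of KO lung (edgeR adjusted p = 0.0919).

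The globins and *Ppbp* reached the level of the filter, 1.67 CPM, in lung libraries alone, and *Pf4* in WT lung alone. Their tests of lung against spleen were thus made only because of the organ where they were high. The 4 globins were higher in lung in both genotypes, *Hbb-bs* 25.1-fold in WT (edgeR adjusted p = 9.04e-15) and 53.9-fold in KO (edgeR adjusted p = 1.91e-23). The difference between these folds, a log2 value of 1.10, did not pass (edgeR adjusted p = 0.159). *Lyz2* was also higher in lung, 4.55-fold in WT (edgeR adjusted p = 2.50e-09) and 6.42-fold in KO (edgeR adjusted p = 2.79e-16). The KO fold became 14.9 without library 2 of KO spleen (edgeR adjusted p = 3.67e-11). *Ppbp* was higher in lung in WT (edgeR adjusted p = 5.09e-18), with a read ratio of 131 that rests on 2 reads in WT spleen (exact 95% interval 35.8 to 1086), and 3.42-fold higher in KO (edgeR adjusted p = 3.65e-07). For *Pf4* the fold was 13.0 in WT (edgeR adjusted p = 1.06e-10), and in KO a log2 difference of 0.57 did not pass (standard error 0.57, edgeR adjusted p = 0.394). The read ratio of lung to spleen for *Pf4* in KO was 1.49, with an exact 95% interval of 0.604 to 3.49. *Cd68* differed between the organs in KO (1.89-fold lower in lung, edgeR adjusted p = 7.43e-07), whereas in WT it did not pass (edgeR adjusted p = 0.371).

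**Figure D4:**
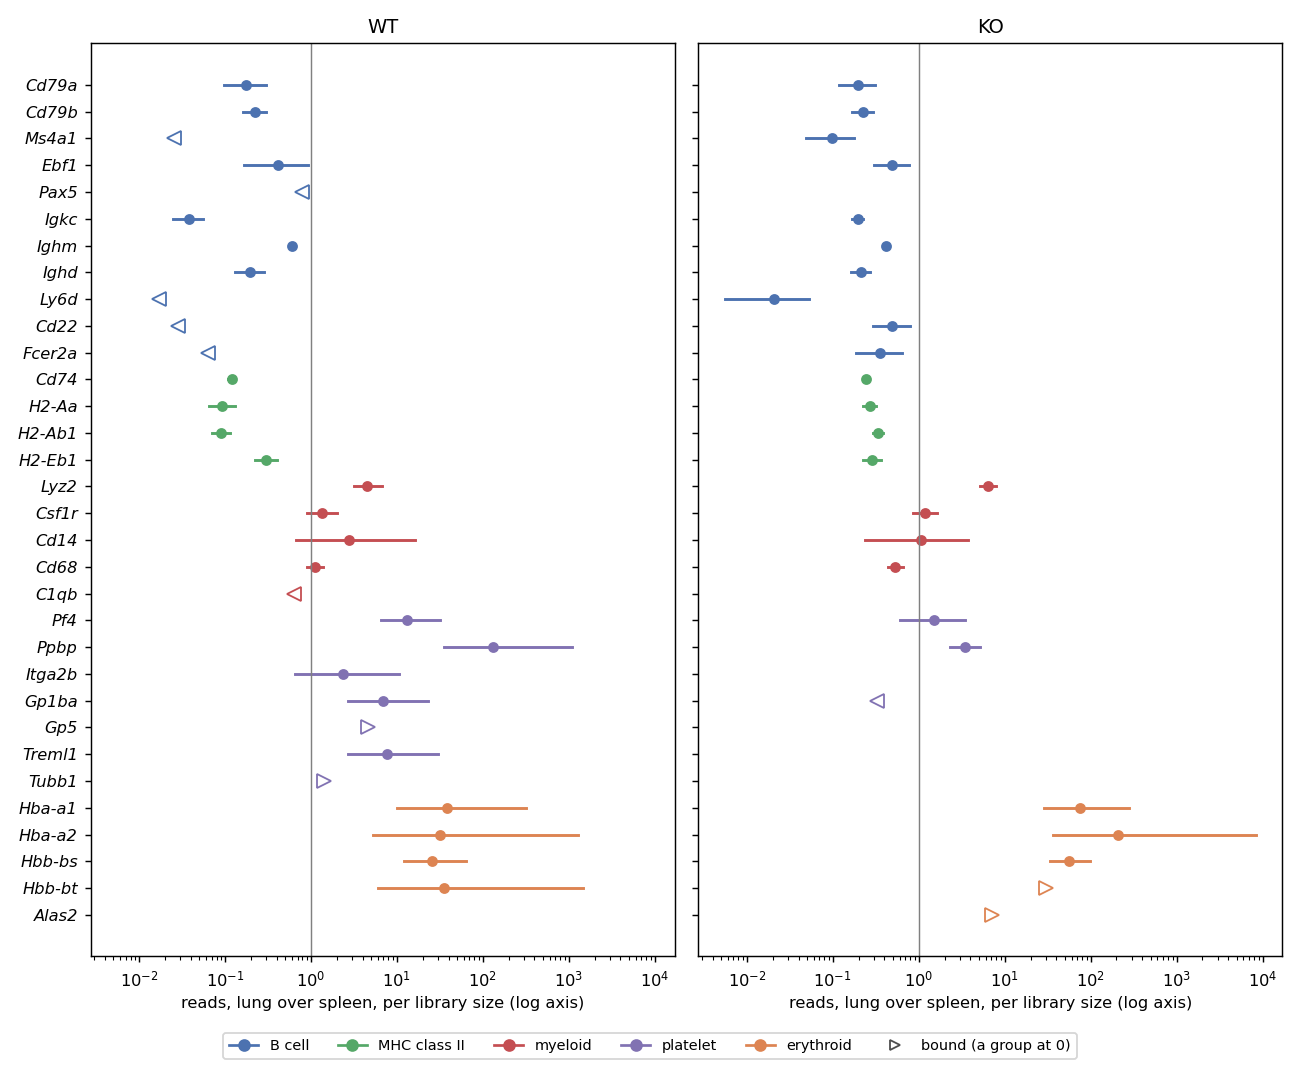
Ratio of reads in lung to reads in spleen, each per scaled library size and summed over the 2 libraries of a group, in WT and in KO (log axis, same scale in both panels). Points have exact 95% intervals for counting error, and open triangles are bounds against the floor of 3 reads. B cell and MHC class II transcripts lie to the left of 1 and globins to the right in both genotypes, and *Pf4*, at 13.3 in WT, is at 1.49 in KO.

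T cell genes were read although TCRb+ cells were sorted out. Of 12 such genes, 7 passed the filter. In KO lung, 0 of them were higher and 3 lower, beside 29.2% and 26.4% of all genes tested. In KO spleen, 2 were higher and 1 was lower, beside 28.2% and 28.9%. *Cd3e* was at 7.71 and 6.99 CPM in WT lung and 6.35 and 7.48 in KO lung, and at 32.0 and 32.5 in WT spleen and 7.51 and 11.1 in KO spleen (log2 fold change in spleen -1.60, edgeR adjusted p = 9.64e-14). *Trac*, the constant region of the T cell receptor alpha chain, fell in KO lung from 23.5 and 21.8 CPM to 9.62 and 10.5 (edgeR adjusted p = 1.77e-08), and *Trbc1* lay between 202 and 339 CPM. The other 5 (*Cd4*, *Cd8a*, *Cd8b1*, *Cd5* and *Cd6*) had under 10 reads in every library. The part of these cells, of the NK cell's own transcription and of free RNA in the results above was not tested.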

How the data were processed

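The deposited files hold raw read counts per gene symbol, 1 file for each of 8 libraries. The authors prepared libraries with an NEBNext Ultra kit (per the labels; the methods name the Ultra II kit), sequenced 50-base reads on a HiSeq2500, aligned them to mm10 with HISAT2 2.1.0 and counted them with HTSeq 0.11.1 (labels). The gene annotation and the strand setting are not given in the sources used here, so reads of overlapping genes on opposite strands cannot be told apart. Of aligned reads, 29.7% to 33.2% were not unique and had not been counted.

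Tests were run with edgeR 4.0.16 in R 4.3.3 (filterByExpr over the 4 groups, TMM, 1 mean per group in a model of all 8 libraries, quasi-likelihood test, Benjamini-Hochberg adjustment over 12595 genes, threshold 0.05). Standard errors came from the F statistic. Read ratios pooled a group's reads per scaled library size, with exact conditional binomial intervals (95%), and bounds used 3 reads for a group at 0. Alternatives were scaling by library totals, by the upper quartile or by RLE, a minimum of 10 counts in all libraries or no minimum at all, DESeq2 1.42.0, a likelihood ratio test with estimated dispersion and one with a coefficient of variation of 0.2, a replicate block, a GC offset (spline with 5 degrees of freedom), a fit of 4 libraries, sums without the most abundant transcript, and leaving out each library. The steps were tested on simulated counts.

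Positions and shared stretches came from GENCODE M21 (GRCm38), in which 46394 of the 48321 symbols matched, and promoters from RefSeq. The transcripts and all gene lists were chosen with earlier results of these data known. Each transcript is given by library if it was among the 3 most abundant of its lineage, passed in either KO comparison or had 0 reads in a library. From each further list, at most 3 genes with the smallest p and KO libraries on one side of both WT libraries are named, as are genes with 0 reads in all libraries, and exceptions are stated. Of the 129 further genes, 128 were in the files.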

Additional observations from a re-analysis of the deposited data

Results flagged for a closer look

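The difference between the KO effect in lung and that in spleen, tested as a term of the model, passed for 12 transcripts, beside 61.6% of all genes tested. The log2 values, with the lung effect first, were 2.34 for *Igkc*, -0.55 for *Ighm*, 1.02 for *Cd74*, 1.53 for *H2-Aa* and 1.88 for *H2-Ab1*. They were -1.09 for *Cd68*, -3.14 for *Pf4* and -5.12 for *Ppbp*. For the 4 transcripts without a read in WT lung, the fitted values of 6.05 for *Ms4a1*, 4.38 for *Ly6d*, 8.18 for *Cd22* and 6.59 for *Fcer2a* depend on the prior count of the fit and are no bounds. *Ighm*, *Cd22*, *Cd68* and *Ppbp* passed in opposite directions in the organs, *Ighm* and *Cd68* with differences of at most 0.60 on the log2 scale in each.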

How the results depend on the processing

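Of 2296 values for single transcripts under the alternatives, 2205 counted as unchanged, 85 lost a call, 4 gained one and 2 gained one in the other direction. The last 2 were those of *H2-Ab1* in spleen, 0.24 with the GC offset and 0.25 with the GC offset and the replicate block, against -0.04. Values without a call could change sign and still count as unchanged. That of *Hba-a1* in spleen, for example, ranged from -3.04 to 3.32 without a call, against -0.20. The assumed coefficient of variation of 0.2 removed 23 calls and DESeq2 17. In lung, 19 transcripts were called, 12 with that coefficient, and 15 to 19 with a library left out. In spleen, 11 were called, 5 with DESeq2, 3 with the coefficient, and 7 to 11 with a library left out (7 without library 2 of KO spleen). Leaving out a library gave 11 to 12 calls of the 12 for the difference between organs, 21 to 22 of 22 for lung against spleen in WT and 18 to 22 of 22 in KO. Requiring 10 counts in every library left 8 transcripts to test, with 5, 5, 4, 6 and 7 calls in these 5 comparisons. Counts of all genes called fell most with the coefficient of 0.2, from 7000 to 1557 in lung and from 7195 to 1144 in spleen, and to 4507 and 4165 with DESeq2.

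The log2 ratio of the summed B cell level was -0.16 in lung, -0.071 with library totals and 1.45 without *Ighm*, and 0.26 in spleen, 0.19 with library totals and 0.21 without *Ighm*. For MHC class II in spleen it was 0.41, 0.34 with library totals and 0.15 without *Cd74*. For myeloid transcripts, it was 0.20 in lung and 0.61 without *Cd68*, and 0.40 in spleen, 0.33 with library totals and 0.091 without *Cd68*. For platelet transcripts, it was -2.36 in lung and -3.30 without *Ppbp*, and 0.55 in spleen and -0.53 without *Ppbp*. The erythroid sum in spleen, at -0.11, ranged from -0.39 to 0.16 with a library left out, so its sign is not fixed at this depth (0.16 without library 2 of WT spleen, 0.12 without library 2 of KO spleen). These changes follow from the member or library left out, and the cause of the others was not tested.

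Whether equal replicate numbers mark paired samples could not be settled. The deviations of equally numbered libraries correlated at -0.0139 in lung and 0.169 in spleen between WT and KO. Between lung and spleen they correlated at 0.00447 in WT and -0.0758 in KO. Since libraries of a group differed little beyond counting error, low correlations cannot exclude that lung and spleen came from the same mice. With the replicate block, 19, 11, 12, 21 and 22 transcripts were called, against 19, 11, 12, 22 and 22.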
